A study of Arabidopsis thaliana with 24 samples.

Results

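The transcript response to chilling was compared between sets of Arabidopsis seedlings that were cooled at different times and for different lengths. The quantity described here is the time-set difference of the wild-type chilling response: the log2 ratio of 4 °C to 19 °C in the ZT45 set minus the same log2 ratio in the ZT27 set. A negative value therefore means that the response to cold was lower in the ZT45 set than in the ZT27 set. No gene was chosen by its value for entry into the contrast, whereas many of the genes named below were chosen by theirs. Every gene with a number in the deposited table entered, which was 17952 of 37336 genes, and 12 of the 24 libraries of the series carried the contrast. Of the genes with values, 17515 are protein coding.

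The 4 groups were wild-type Col-0 seedlings of Arabidopsis thaliana at 4 °C in the ZT45 set, at 19 °C in the ZT45 set, at 4 °C in the ZT27 set and at 19 °C in the ZT27 set, with 3 libraries each. The same 4 groups of sig5-3 (SALK_141383C), which carries a T-DNA insertion in the plastid sigma factor gene SIG5, are used only for comparison. All seedlings grew for 11 days at 19 °C in a 12 h photoperiod and then stood in continuous light for 24 h. Times are zeitgeber times (ZT), in hours after dawn. The ZT45 set was chilled for 3 h from ZT45 and the ZT27 set for 5 h from ZT27, so that the start and the length of chilling cannot be told apart. The 24 h of continuous light are given for both sets, although their treatments began at different ZT. Age and time in continuous light before treatment may thus differ between the sets, and these cannot be told apart from the start and length either. ZT45 and ZT27 name the sets by the start of treatment, also for the seedlings kept at 19 °C. Each library was made from a pool of 10 whole seedlings, and in such material fewer cells of a type and less RNA per cell cannot be told apart.

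Deposited values were a normalised signal per gene, not divided by gene length, so levels are compared between groups and never between genes. The depth of a wild-type library, estimated from the smallest steps in its values, was between 21274969 and 36441330 reads. A signal of 0.0688 to 0.111, depending on the library, was worth 3 reads, which is as much as a count of 0 can hide. Correlations between libraries of a wild-type group were at least 0.9933. The plastid-encoded and mitochondrial genes had no values and were not analysed here. Seedlings hold shoot and root tissue, and of 7 root markers the 4 with values summed to 65.4 to 73.6 at 4 °C and 49.0 to 54.5 at 19 °C in the ZT45 set, and to 36.4 to 39.2 at 4 °C and 40.9 to 42.2 at 19 °C in the ZT27 set. The sum of these root markers thus moved with the contrast, though not every marker did. Of the 4, 2 had a higher time-set difference at an adjusted p under 0.05 (limma), 2 did not pass, and the lowest difference was −0.481. Their part in the results was not tested.

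The circadian clock of Arabidopsis is a network of transcription factors that repress one another in turn through the day. CCA1 and LHY peak around dawn, the PRR proteins follow from morning to evening, and GI, ELF3, ELF4, LUX and TOC1 peak in the afternoon or evening. Cold induces the CBF transcription factors, which bind the CRT motif and switch on cold-regulated (COR) genes, and the clock is known to gate how strongly the CBF genes respond at a given hour. In continuous light the clock keeps running, so a start at ZT27 falls in subjective morning and a start at ZT45 in the later part of the subjective night. The hour of sampling is not in the labels, so measured levels need not be those of the start hours. That hour may also differ between the sets, and its part cannot be told apart from the start and length of chilling.

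At an adjusted p under 0.05 (limma, Benjamini-Hochberg over all genes with values), 2461 genes (13.7%) had a higher chilling response in the ZT45 set than in the ZT27 set, and 2255 genes (12.6%) had a lower one. With a log2 difference beyond 1.5 as well, the threshold of the series' design text, 49 genes (0.273%) were called higher and 236 genes (1.31%) were called lower. In this fit passing genes were thus spread almost evenly over both directions, whereas large differences were mostly lower in the ZT45 set. The passing counts moved with the setting. With median-of-ratios scaling 2130 genes passed higher and 2556 lower. In the 12 wild-type libraries alone 3247 passed higher and 2788 lower. Without the first chilled ZT27 replicate of sig5-3, which enters through the shared error estimate, these counts were 3240 and 2773. In the fit as reported, the median over all genes was 0.032, with 5% of genes below −0.78 and 5% above 0.635. The called genes nearest to the threshold lay at 1.5031 and −1.5009, and the passing genes just short of it at 1.4834 and −1.5. The sign of the difference held for every choice of 1 library from each of the 4 groups in all 49 genes called higher and in 233 of the 236 called lower, and in 5598 genes (31.2%) of all.

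Chilling in the ZT45 set raised 3618 genes (20.2%) and lowered 2778 (15.5%) at an adjusted p under 0.05 (limma). In the ZT27 set it raised 4955 (27.6%) and lowered 5180 (28.9%). Of the 236 genes called lower, 135 rose in both sets and less in the ZT45 set, and 73 rose in the ZT27 set with a ZT45 response that did not pass. Another 27 fell in the ZT45 set and rose in the ZT27 set. PIF4 alone fell in both sets and more in the ZT45 set. Of the 49 genes called higher, 19 fell in both sets and less in the ZT45 set, 15 rose in the ZT45 set and fell in the ZT27 set, 9 fell with only the ZT27 response passing, and 4 rose with only the ZT45 response passing. FKF1 and AT1G05870 were the 2 genes called higher that rose in both sets and more in the ZT45 set.

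**Figure D1:**
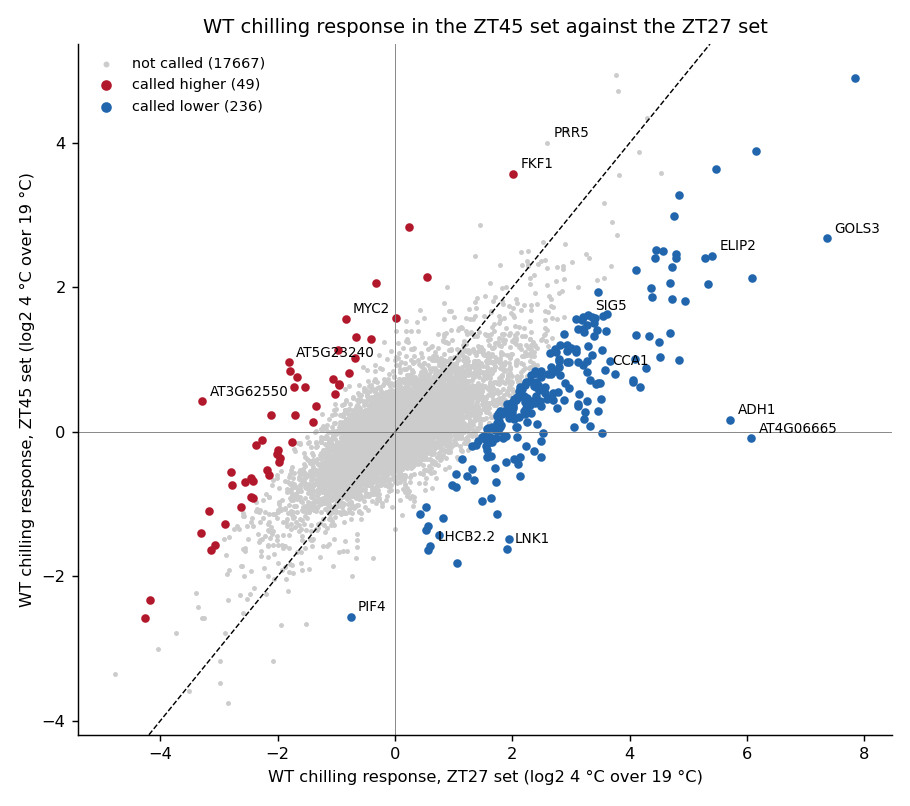
Each point is a gene, with the wild-type chilling response (log2 of 4 °C over 19 °C) in the ZT45 set on the vertical axis and in the ZT27 set on the horizontal axis; the dashed line marks equal responses. The 236 genes called lower (blue) lie below the line, mostly at positive ZT27 responses, and the 49 called higher (red) lie above it, mostly at negative ZT27 responses.

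The contrast can arise from levels at 4 °C, at 19 °C or both. At 4 °C, 192 of the 236 genes called lower had a lower level in the ZT45 set than in the ZT27 set, 33 a higher level and 11 neither at an adjusted p under 0.05 (limma). At 19 °C, 97 had a higher level in the ZT45 set, 62 a lower level and 77 neither. The combination seen most often, in 77 genes, was a lower level at 4 °C in the ZT45 set beside controls that did not pass, and 53 genes combined a lower level at 4 °C with a higher one at 19 °C. In 171 of the 236 (72.5%) the 2 sets lay farther apart at 4 °C than at 19 °C, against 25 of the 49 genes called higher (51%). The same held for 1441 of all 2255 genes that passed lower (63.9%) and 1600 of all 2461 that passed higher (65%). Among the 49 genes called higher, 28 had a lower level at 19 °C in the ZT45 set. Over all genes tested, levels at 4 °C were higher in the ZT45 set for 5084 genes and lower for 4327, and at 19 °C they were higher for 3572 and lower for 3863.

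A ratio can shrink while the absolute rise grows. In 18 of the 236 genes called lower the difference of 4 °C and 19 °C means, taken without logarithms, was larger in the ZT45 set, or in the case of PIF4 less negative. These included CCA1, CHS, F3H, DFR, ELIP1, ELIP2, BBX25 and SIG5, all with higher controls in the ZT45 set. ELIP2, an early light-induced protein of the thylakoid, had a signal of 698, 890.1 and 749 at 4 °C and 134, 140.2 and 153 at 19 °C in the ZT45 set, and 241, 228 and 239 at 4 °C and 3.85, 4.45 and 7.58 at 19 °C in the ZT27 set. No library of one group overlapped another group, and both ZT45 groups stood above their ZT27 counterparts. The log2 response of ELIP2 was 2.44 in the ZT45 set, against 5.40 in the ZT27 set (time-set difference −2.97 ± 0.28, adjusted p = 1.4e-07, limma), yet the means rose by more signal units in the ZT45 set. FKF1 and AT1G18000 showed the converse among the 49 genes called higher. For these 20 genes the direction holds for ratios only.

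Among the 15 largest decreases in genes with a mean of at least 10, ADH1, the alcohol dehydrogenase of ethanol fermentation, stood out (AT1G77120; chromosome 1, 28975255 to 28977417, plus strand, TAIR10.1). Its signal was 7.01, 7.34 and 7.83 at 4 °C and 6.33, 7.66 and 5.68 at 19 °C in the ZT45 set, and 368, 362 and 375 at 4 °C and 7.03, 6.56 and 5.98 at 19 °C in the ZT27 set. The 3 chilled libraries of the ZT27 set were high and the other 9 libraries overlapped one another at a low level. The time-set difference was −5.55 ± 0.17, adjusted p = 1.9e-16 (limma), with a chilling response of 0.17 in the ZT45 set, against 5.72 in the ZT27 set.

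GOLS3 encodes a galactinol synthase, the first step towards raffinose (AT1G09350; chromosome 1, 3019639 to 3021443, plus strand), and it had a signal of 7.96, 9.18 and 8.804 at 4 °C and 1.27, 0.915 and 0.658 at 19 °C in the ZT45 set, and 452, 448 and 434 at 4 °C and 2.24, 2.22 and 2.16 at 19 °C in the ZT27 set. Both chilled groups lay above their controls, and the chilled ZT27 libraries lay far above all others. The time-set difference was −4.68 ± 0.21, adjusted p = 1e-13 (limma). AT1G70640, a PB1-domain protein, followed with −3.95 ± 0.20, and its 19 °C libraries of the ZT45 set lay between 0.0526 and 0.143, near the signal of 3 reads, so this value depends on the constant added before taking logarithms. LEA3, annotated as a late embryogenesis abundant protein, had 55.2 ± 5.005 at 4 °C and 27.4 ± 2.79 at 19 °C in the ZT45 set, and 167 ± 9.51 at 4 °C and 5.39 ± 0.563 at 19 °C in the ZT27 set (SD, n = 3 each), and a time-set difference of −3.84 ± 0.14. LEA3 rose in both sets and less in the ZT45 set, where the control was the higher one.

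The other large decreases were spread over several annotated families. Glycosyl hydrolases AT3G04010 and AT1G32860 had time-set differences of −3.56 ± 0.17 and −3.55 ± 0.13, and the thaumatin-family genes AT4G36010 and AT1G20030 had −3.25 ± 0.15 and −3.24 ± 0.16. AT5G10410, annotated with an ENTH domain, had −3.40 ± 0.21, AT5G17460 −3.29 ± 0.14, and the uncharacterised genes AT1G68500 and AT1G16850 −3.37 ± 0.21 and −3.33 ± 0.18. LNK1 and LNK4 complete this group and are described with the clock. The very largest value belonged to AT4G06665, a non-coding RNA whose signal was 3.62, 3.38 and 39.7 at 4 °C and 10.1, 27.2 and 2.11 at 19 °C in the ZT45 set, and 56.3, 24.4 and 34.6 at 4 °C and 0.0177, 0.0105 and 0.117 at 19 °C in the ZT27 set. Its libraries scattered widely within 3 of the 4 groups, the 19 °C libraries of the ZT27 set lay around the limit of detection, and the sig5-3 difference had the opposite sign at 0.94.

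The largest increase belonged to AT3G62550, annotated as an adenine nucleotide alpha hydrolase-like protein (AT3G62550; chromosome 3, 23135630 to 23137173, plus strand). Its signal was 5.67, 5.47 and 5.65 at 4 °C and 4.33, 3.66 and 4.21 at 19 °C in the ZT45 set, and 10.9, 9.61 and 11.3 at 4 °C and 115, 102 and 106 at 19 °C in the ZT27 set. The 19 °C libraries of the ZT27 set were about 10 times the chilled ones of that set, whereas chilled and control libraries of the ZT45 set lay close together without overlap. The chilling response was 0.42 in the ZT45 set, against −3.29 in the ZT27 set, a time-set difference of 3.71 ± 0.16, adjusted p = 1.4e-14 (limma).

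AT5G23240, annotated as a DNAJ heat shock N-terminal domain protein, showed the same layout with 21.5, 25.9 and 21.2 at 4 °C and 11.9, 12.9 and 9.67 at 19 °C in the ZT45 set, and 30.3, 26.4 and 26.8 at 4 °C and 113, 93.6 and 90.08 at 19 °C in the ZT27 set. Controls of the ZT27 set were the highest libraries, and chilling raised the signal in the ZT45 set. The time-set difference was 2.77 ± 0.23, adjusted p = 8.9e-09 (limma). GER3, a germin-like protein of the cell wall, had 550.1 ± 33.04 at 4 °C and 307 ± 39.8 at 19 °C in the ZT45 set, and 268 ± 16.2 at 4 °C and 928 ± 35.6 at 19 °C in the ZT27 set (SD, n = 3 each), and CCL had 28.6 ± 0.7497 at 4 °C and 16.7 ± 0.304 at 19 °C in the ZT45 set, and 81.1 ± 2.97 at 4 °C and 260.1 ± 19.5 at 19 °C in the ZT27 set (SD, n = 3 each). Both rose with chilling in the ZT45 set and fell in the ZT27 set, by time-set differences of 2.63 ± 0.17 and 2.43 ± 0.10.

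JMJD5, a jumonji-domain protein tied to the clock, had a chilling response of 1.31 in the ZT45 set, against −0.67 in the ZT27 set, and the thioredoxin WCRKC1 had 1.13 in the ZT45 set, against −0.98 in the ZT27 set. AT1G07050, a CCT-motif protein, responded by 2.06 in the ZT45 set, against −0.32 in the ZT27 set, of which the ZT27 value did not pass. MYC2, the basic helix-loop-helix factor of jasmonate signalling, had a signal of 29.9, 18.7 and 23.9 at 4 °C and 5.52, 8.97 and 9.13 at 19 °C in the ZT45 set, and 2.096, 3.73 and 3.37 at 4 °C and 5.27, 10.5 and 3.36 at 19 °C in the ZT27 set. Chilled libraries of the ZT45 set were all higher than the other 9, which lay below 10.6. Its time-set difference of 2.41 ± 0.78, adjusted p = 0.03 (limma) lost the call when any 1 of 5 libraries was left out. The adjusted p then ran up to 0.0816. In AT3G26510, AT1G56220 and AT1G18000 chilling lowered the signal in both sets and less in the ZT45 set, with differences of 2.08 ± 0.16, 1.86 ± 0.15 and 1.85 ± 0.26. AT1G18000 lost the call at 1.05 with a constant of 2. AT3G10020, Fes1B and AT2G03550 fell in the ZT27 set, and their ZT45 responses of −0.18, −0.12 and 0.23 did not pass. AT1G27020 rose by 0.62 in the ZT45 set.

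**Figure D2:**
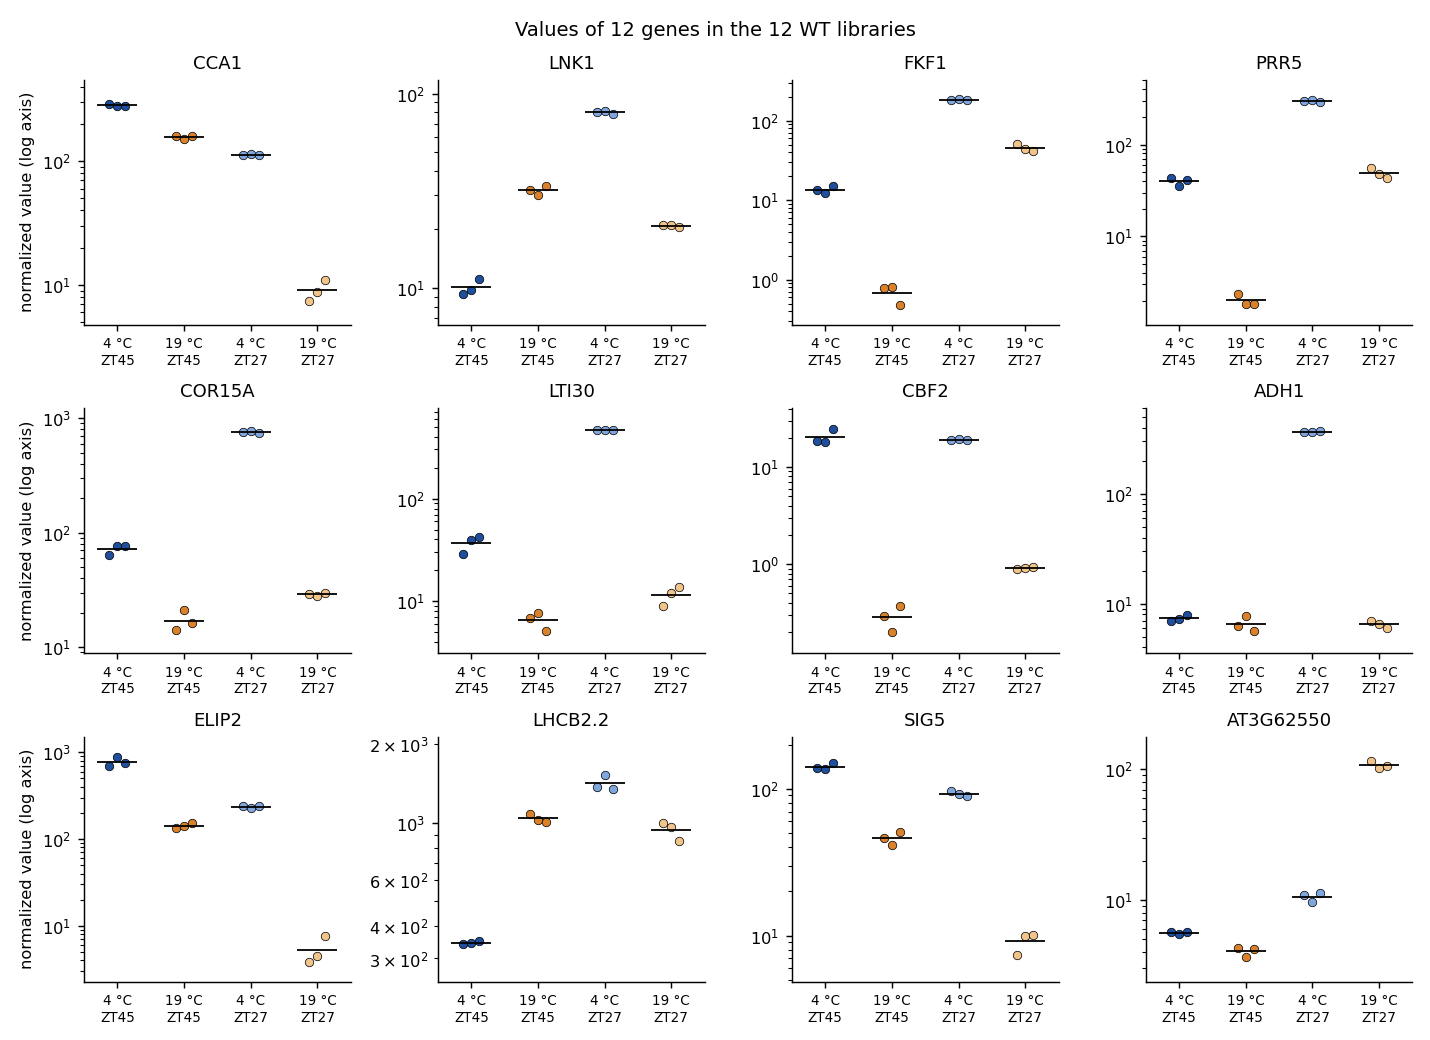
Normalised signal of 12 genes in each of the 12 wild-type libraries on a log axis, with the bar at the mean of the 3 libraries of a group. ADH1 and COR15A are highest in the chilled ZT27 libraries, AT3G62550 is highest in the ZT27 controls, and CBF2 lies at a like level in both chilled groups.

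Counts of list members that passed are to be read beside the shares over all genes, 12.6% lower and 13.7% higher. The morning-phased clock genes had the lowest median of the lists over all genes tested. Among genes with a mean of at least 10, galactinol and raffinose synthesis (2 genes, −3.15) and fermentation (4 genes, −2.91) lay lower. All 14 had values, 11 passed lower and 0 passed higher, 9 were called lower, and the median time-set difference was −2.59, against 0.032 over all genes. All 14 rose with chilling in the ZT27 set, and in the ZT45 set 6 rose and 4 fell. The median difference between the sets was −0.449 at 4 °C and 1.52 at 19 °C on the log2 scale.

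LHY, a MYB-related repressor that peaks at dawn, had a signal of 346, 335 and 346 at 4 °C and 304, 285 and 320.3 at 19 °C in the ZT45 set, and 77.3, 73.1 and 71.1 at 4 °C and 6.53, 6.88 and 9.25 at 19 °C in the ZT27 set. Every group was separate from the others, and the 19 °C libraries of the ZT27 set were the low ones. Chilling raised LHY by 3.22 on the log2 scale in the ZT27 set, while the ZT45 response of 0.18 did not pass. Its partner CCA1 had 284 ± 6.68 at 4 °C and 157 ± 4.88 at 19 °C in the ZT45 set, and 113 ± 2.002 at 4 °C and 9.06 ± 1.797 at 19 °C in the ZT27 set (SD, n = 3 each) and a time-set difference of −2.73 ± 0.21, adjusted p = 4.8e-09 (limma).

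LNK1, a coactivator that works with the RVE factors, had 9.34, 9.72 and 11.1 at 4 °C and 31.7, 30.2 and 33.6 at 19 °C in the ZT45 set, and 79.9, 81.3 and 78.5 at 4 °C and 21.04, 21.03 and 20.7 at 19 °C in the ZT27 set. Chilled libraries were the lowest of all in the ZT45 set and the highest of all in the ZT27 set. LNK1 fell by 1.62 on the log2 scale in the ZT45 set and rose by 1.91 in the ZT27 set. LNK2 (−1.14 in the ZT45 set, against 1.74 in the ZT27 set), LNK4 (−1.48 in the ZT45 set, against 1.95 in the ZT27 set) and the pseudo-response regulator PRR7 (−1.19 in the ZT45 set, against 0.82 in the ZT27 set) likewise fell in one set and rose in the other. PRR7 had the smallest adjusted p of the list, with a signal of 6.25, 6.36 and 6.86 at 4 °C and 15.5, 14.5 and 16.6 at 19 °C in the ZT45 set, and 200.3, 199 and 193 at 4 °C and 117, 109 and 109 at 19 °C in the ZT27 set. Both ZT27 groups were far above both ZT45 groups, and chilled and control libraries lay in opposite order in the 2 sets.

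PRR9, RVE8 and LNK3 rose in the ZT27 set, and their ZT45 responses of 0.29, −0.27 and −0.02 did not pass. RVE4 and AT5G52660 (RVE6), which with RVE8 activate evening genes, rose in both sets and less in the ZT45 set, with differences of −1.03 ± 0.10 and −1.48 ± 0.13. The remaining RVE factors RVE1, RVE2 and RVE7 had −0.24 ± 0.26, 0.03 ± 0.24 and −0.55 ± 0.22, none of which passed. RVE7 passed at the same difference without the first chilled ZT27 replicate of sig5-3 (SE 0.13, adjusted p = 0.0018, limma) and in the 12 wild-type libraries alone (SE 0.11, adjusted p = 0.00039), which makes 12 of 14 lower.

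Afternoon- and evening-phased genes did not move as a block. Of 16 genes, 6 passed higher and 3 lower, and the median was 0.186. The lower count was 5 with a constant of 2, with median-of-ratios scaling, or without the first chilled ZT27 replicate of sig5-3. FKF1, a blue-light receptor F-box protein of the flowering pathway, had a signal of 13.3, 12.4 and 14.9 at 4 °C and 0.782, 0.8003 and 0.473 at 19 °C in the ZT45 set, and 182, 187 and 184 at 4 °C and 50.9, 43.8 and 41.7 at 19 °C in the ZT27 set. Both chilled groups lay above their controls, and both ZT27 groups above both ZT45 groups. In ratio terms the rise was larger in the ZT45 set (3.57 in the ZT45 set, against 2.01 in the ZT27 set), with a time-set difference of 1.56 ± 0.14, adjusted p = 5.4e-09 (limma). The difference passed at 0.55 with a constant of 2, and the call was lost there and without 19 °C ZT27 replicate 1, 19 °C ZT45 replicate 3 or 4 °C ZT45 replicate 3 of the wild type.

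PRR5 had 42.8, 35.3 and 40.8 at 4 °C and 2.35, 1.83 and 1.84 at 19 °C in the ZT45 set, and 296, 303 and 289 at 4 °C and 55.9, 48.4 and 43.3 at 19 °C in the ZT27 set, with the same order of groups, the chilled ZT45 libraries lying just under the ZT27 controls. The difference of 1.42 ± 0.14, adjusted p = 5e-08 (limma) stayed just short of the call. GI, the scaffold protein GIGANTEA, went the other way with 7.31 ± 1.24 at 4 °C and 5.12 ± 0.254 at 19 °C in the ZT45 set, and 391 ± 8.74 at 4 °C and 82.1 ± 9.102 at 19 °C in the ZT27 set (SD, n = 3 each) and a difference of −1.78 ± 0.16. GRP7, a clock-controlled RNA-binding protein, rose by 1.24 in the ZT45 set, while its ZT27 response of −0.18 did not pass. ELF3 of the evening complex had 0.37 in the ZT45 set, against −0.30 in the ZT27 set, whereas its partners ELF4 and LUX had lower ratios in the ZT45 set with differences of −0.65 ± 0.17 and −0.44 ± 0.08. TOC1 rose in both sets, by 1.15 in the ZT45 set, against 1.18 in the ZT27 set, and its difference of −0.03 ± 0.08 did not pass.

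**Figure D3:**
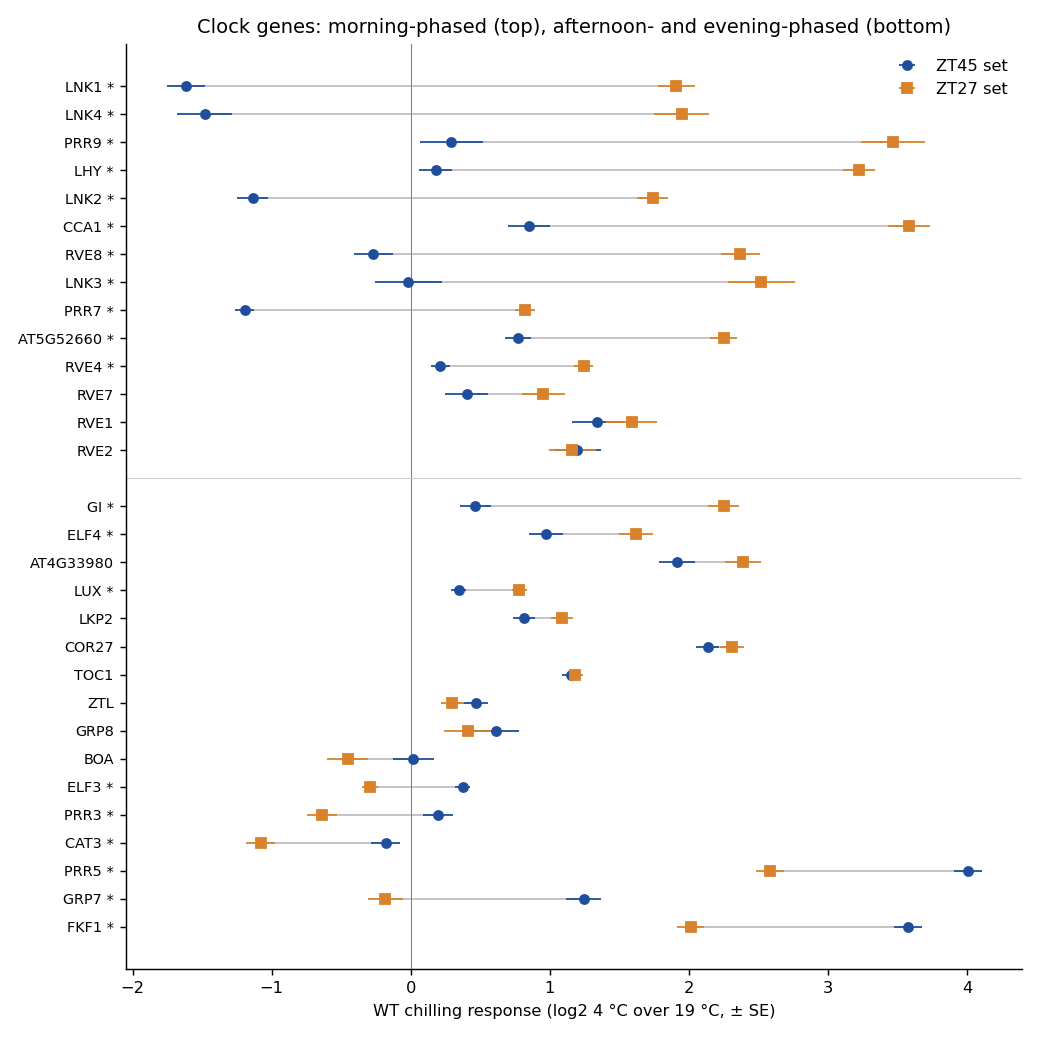
Wild-type chilling response (log2 of 4 °C over 19 °C ± SE from the fit) of morning-phased clock genes (upper block) and afternoon- or evening-phased ones (lower block) in the ZT45 set (circles) and the ZT27 set (squares), with an asterisk where the difference passed. Squares lie to the right of circles in 13 of the 14 morning genes, whereas the evening genes fall on both sides.

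Of 20 early cold transcription factors, 16 had values, among which 9 passed lower and 1 higher with a median of −0.563. CBF2 was the one that passed higher, and its signal was 18.7, 17.9 and 24.4 at 4 °C and 0.293, 0.2001 and 0.368 at 19 °C in the ZT45 set, and 19.1, 19.2 and 19.2 at 4 °C and 0.895, 0.917 and 0.929 at 19 °C in the ZT27 set. Chilled libraries of the 2 sets overlapped, and controls were lower in the ZT45 set with no overlap. The response was 4.72 in the ZT45 set, against 3.80 in the ZT27 set, with a difference of 0.92 ± 0.17, adjusted p = 0.00018 (limma), so that the contrast of CBF2 lay at 19 °C. CBF1 and CBF3 had no values.

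DEAR1, a DREB-related repressor, had 0.955, 1.37 and 1.24 at 4 °C and 0.611, 0.686 and 0.894 at 19 °C in the ZT45 set, and 21.6, 21.6 and 21.7 at 4 °C and 1.61, 1.74 and 1.04 at 19 °C in the ZT27 set, with the chilled ZT27 libraries alone at a high level, and a difference of −3.06 ± 0.23, adjusted p = 2.7e-10 (limma). RAV1, RAP2.1, ERF5 and ERF6 rose in both sets and less in the ZT45 set, with differences of −1.34 ± 0.12, −1.53 ± 0.19, −1.70 ± 0.22 and −1.59 ± 0.34. RAP2.1 and ERF6 were called narrowly and lost the call in 4 and 5 of 20 alternative settings, 3 and 4 of them with 1 library left out, at values down to −1.18 and −1.36, and passed throughout. The zinc-finger genes ZAT12, ZAT6, AZF2 and AZF3 rose in both sets and had differences between −0.25 and 0.27, none of which passed. Among the upstream regulators of the CBF genes, 1 of 9 passed, the kinase OST1 at −0.33 ± 0.12, and it no longer passed in 8 of 21 alternative settings. This share of 11.1% lay near the 12.6% of all genes that passed lower. ICE1 had −0.05 ± 0.07.

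COR genes and dehydrins, which protect membranes and proteins from freezing and drying, had 10 of 14 lower and 0 higher, with a median of −1.27. The median chilling response was 0.874 in the ZT45 set and 2.39 in the ZT27 set. COR15A, a chloroplast stroma protein, had 63.4, 76.7 and 75.97 at 4 °C and 14.1, 21.01 and 16.2 at 19 °C in the ZT45 set, and 762, 770.5 and 746 at 4 °C and 29.2, 28.1 and 29.8 at 19 °C in the ZT27 set. Groups did not overlap, and the chilled ZT27 libraries lay about 10-fold above the chilled ZT45 libraries. The difference was −2.63 ± 0.24, adjusted p = 7e-08 (limma). LTI30, a dehydrin, had 28.6, 39.3 and 42.1 at 4 °C and 6.87, 7.63 and 5.103 at 19 °C in the ZT45 set, and 464, 462 and 464 at 4 °C and 8.98, 12.2 and 13.8 at 19 °C in the ZT27 set, with controls of the ZT45 set below those of the ZT27 set in every library and a difference of −2.88 ± 0.24, adjusted p = 1.1e-08 (limma).

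COR47, ERD10 and RD29A followed with −2.28 ± 0.14, −1.87 ± 0.11 and −1.84 ± 0.16. COR15B, which neighbours COR15A, rose by 4.35 in the ZT45 set, against 4.29 in the ZT27 set, and its difference of 0.05 ± 0.27 did not pass. KIN2 and the dehydrin gene ERD14 did not pass either, at −0.31 ± 0.19 and −0.34 ± 0.14, and ERD14 passed in 4 of 21 alternative settings at up to −0.41. All 3 measured genes of galactinol and raffinose synthesis passed lower: GOLS3, RS5 at −1.61 ± 0.14 and GOLS1 at −1.16 ± 0.15.

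The sequence upstream of 5 genes is shown as an example of each direction, chosen after their values were seen: GOLS3, COR15A and LTI30 of the cold lists were called lower, and FKF1 and CCL were called higher, FKF1 in ratio terms only. Each run is the 250 bases before the annotated start, 5′ to 3′ on the strand of the gene, from the RefSeq TAIR10.1 genome: chr1:3019389-3019638 (plus strand) for GOLS3, chr2:17712331-17712580 (minus strand) for COR15A, chr3:18940393-18940642 (plus strand) for LTI30, chr1:25508389-25508638 (plus strand) for FKF1 and chr3:9827432-9827681 (plus strand) for CCL. Capitals mark matches on either strand to the motifs listed after the sequences.
GOLS3: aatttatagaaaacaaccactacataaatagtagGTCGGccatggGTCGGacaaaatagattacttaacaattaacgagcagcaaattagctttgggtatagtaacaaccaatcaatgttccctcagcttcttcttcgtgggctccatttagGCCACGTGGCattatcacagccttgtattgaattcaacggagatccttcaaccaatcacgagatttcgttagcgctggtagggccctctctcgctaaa
COR15A: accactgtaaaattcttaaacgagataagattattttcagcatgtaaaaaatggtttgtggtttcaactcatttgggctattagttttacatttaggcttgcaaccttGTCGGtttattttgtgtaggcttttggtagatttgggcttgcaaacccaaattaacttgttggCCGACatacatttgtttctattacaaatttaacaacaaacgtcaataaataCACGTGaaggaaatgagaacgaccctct
LTI30: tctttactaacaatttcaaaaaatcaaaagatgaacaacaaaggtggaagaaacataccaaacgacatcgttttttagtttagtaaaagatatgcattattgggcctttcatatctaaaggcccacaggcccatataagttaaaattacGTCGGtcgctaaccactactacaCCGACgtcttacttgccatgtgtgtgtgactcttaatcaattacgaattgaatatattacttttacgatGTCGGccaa
FKF1: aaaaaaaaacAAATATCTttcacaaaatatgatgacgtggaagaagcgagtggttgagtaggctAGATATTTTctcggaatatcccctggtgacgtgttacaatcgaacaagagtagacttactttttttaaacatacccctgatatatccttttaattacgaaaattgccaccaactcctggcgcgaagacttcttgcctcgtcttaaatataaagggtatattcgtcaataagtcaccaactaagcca
CCL: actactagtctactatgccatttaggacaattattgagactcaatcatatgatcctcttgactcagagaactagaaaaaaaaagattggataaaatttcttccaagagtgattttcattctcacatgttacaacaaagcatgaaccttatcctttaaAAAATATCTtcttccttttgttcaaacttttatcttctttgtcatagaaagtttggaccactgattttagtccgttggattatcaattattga
The motifs searched were the CRT core CCGAC, the G-box CACGTG, the abscisic acid response element as ACGTGGC or ACGTGTC, the evening element AAAATATCT, its short form AAATATCT which lies inside it, the CCA1-binding site AAAAATCT and the CAMTA box CGCGT. GOLS3 held 2 CRT cores, and a G-box at −96 to −91 that overlaps 2 abscisic acid elements. COR15A held 2 CRT cores and a G-box at −28 to −23, and LTI30 held 3 CRT cores. FKF1 held an evening element at −186 to −178 and a further short form at −240 to −233, and CCL held an evening element at −93 to −85.

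Over the 17794 genes for which such a window was read, CCGAC occurred in 13.1%, against 30.8% of the 234 genes called lower and 8.16% of the 49 called higher. The evening element occurred in 7.69% of the genes called lower, 8.16% of those called higher and 2.56% of all. Its short form had shares of 14.5%, 12.2% and 5.07% in the same order. The G-box occurred in 16.7%, 4.08% and 7.37%, ACGTGGC in 7.69%, 6.12% and 3.94%, and ACGTGTC in 10.7%, 2.04% and 4.22%. The CCA1-binding site at 7.26%, 6.12% and 6.81% and the CAMTA box at 8.12%, 2.04% and 7.4% lay near the share of all genes among the genes called lower. The shares among the 49 genes called higher rest on few promoters. CCGAC and the evening element were held by 4 each, the G-box by 2 and ACGTGGC by 3. ACGTGTC and the CAMTA box were held by 1 each. All shares come from counts of letters in a window of fixed length and no test was made of them.

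Genes of abscisic acid turnover fell into both arms of the pathway. CYP707A1, CYP707A2 and CYP707A3, the 8′-hydroxylases that break the hormone down, were called lower at −1.64 ± 0.14, −1.79 ± 0.11 and −2.60 ± 0.33, and so was the zeaxanthin epoxidase ABA1 at −1.51 ± 0.07. ABA1 lay at the threshold and fell short of the call in 4 of 21 alternative settings, with −1.48 nearest to 0, and CYP707A1 in 1 of 20, at −1.38 with a constant of 2. CYP707A2 had a signal of 32.9, 36.1 and 35.4 at 4 °C and 12.4, 11.5 and 12.4 at 19 °C in the ZT45 set, and 59.98, 55.1 and 52.2 at 4 °C and 5.29, 5.07 and 5.501 at 19 °C in the ZT27 set. Chilled groups lay above controls in both sets, and the sets were in opposite order at 4 °C and 19 °C. In all, 5 of 9 genes passed lower and 1 higher, namely ABA2, a synthesis enzyme, at 0.43 ± 0.12, with a list median of −0.449. NCED3, the rate-limiting dioxygenase of synthesis, rose by 2.05 in the ZT45 set, against 2.298 in the ZT27 set and its difference of −0.25 ± 0.20 did not pass, except at −0.49 with a constant of 2.

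Of 15 abscisic acid response genes, 5 passed lower and 2 higher, with a median of 0.108. The higher count was 6 without the first chilled ZT27 replicate of sig5-3, which enters through the shared error estimate, 5 in the wild-type libraries alone, and 4 without 19 °C ZT27 replicate 1 or 19 °C ZT45 replicate 2 of the wild type. The bZIP factor ABF1, the phosphatase ABI2 and the NAC factor RD26 had lower ratios in the ZT45 set (−1.10 ± 0.09, −1.01 ± 0.14 and −1.07 ± 0.26). The homeodomain gene ATHB12 and the bZIP factor ABF2 had higher ones (1.00 ± 0.15 and 0.56 ± 0.11).

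Flavonoid and anthocyanin genes had 12 of 19 lower and 0 higher, with a median of −0.852, although the median level was higher in the ZT45 set by 1.87 at 4 °C and 2.68 at 19 °C on the log2 scale. With a constant of 2, 2 of the 19 passed higher. CHS, chalcone synthase at the head of the pathway, had 1349, 1431 and 1310.0 at 4 °C and 879.8, 1006 and 848 at 19 °C in the ZT45 set, and 519, 551 and 533 at 4 °C and 98.7, 96.1 and 95.3 at 19 °C in the ZT27 set. Groups did not overlap, and both ZT45 groups stood above both ZT27 groups. Its difference was −1.88 ± 0.16, adjusted p = 5e-09 (limma), with chilling responses of 0.58 in the ZT45 set, against 2.46 in the ZT27 set. FLS1, F3H, UGT78D2 and DFR, the other called members, had −1.74 ± 0.13, −1.77 ± 0.19, −1.60 ± 0.14 and −1.75 ± 0.32, and UGT78D2 fell just short of the call without 19 °C ZT45 replicate 2. The pathway's transcription factors MYB12, MYB11, TT8 and PAP1 had differences of 0.05 ± 0.21, 0.02 ± 0.18, 0.04 ± 0.22 and 0.53 ± 0.27, none of which passed as reported. MYB11 passed lower at −0.92 with a constant of 0.1 and higher at 0.47 with a constant of 2, so its direction is set by the constant, and PAP1 passed higher at 0.69 with a constant of 2, whereas MYB111 passed at −0.65 ± 0.19.

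The list of light signalling genes, which also held the early light-induced proteins ELIP1 and ELIP2, had 6 of 13 lower and 3 higher with a median of −0.259. ELIP1 was called lower at −2.44 ± 0.17, as was ELIP2. HYH, a bZIP factor related to HY5, was the only other member called, at −1.85 ± 0.23. SPA1 and COP1, which target light-signalling factors for degradation, had −1.15 ± 0.11 and −0.39 ± 0.08. The photoreceptors CRY1 and PHYA passed higher at 0.34 ± 0.08 and 0.31 ± 0.08. HY5, the central bZIP factor of light signalling, passed narrowly at 0.34 ± 0.12, adjusted p = 0.043 (limma), and no longer passed in 15 of 21 alternative settings, with an adjusted p of up to 0.126.

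B-box zinc-finger genes had 8 of 15 lower and 2 higher, with a median of −0.603 that was −0.0597 with a constant of 2. BBX18, BBX22 and BBX25 were called lower at −2.39 ± 0.13, −1.56 ± 0.10 and −1.63 ± 0.12. BBX24 and BBX20 passed lower at −1.03 ± 0.12 and −1.22 ± 0.20. BBX30 and BBX16 passed higher at 1.12 ± 0.21 and 0.62 ± 0.19, and either could be lost. BBX30 no longer passed with a constant of 0.1. BBX16 no longer passed under quantile normalisation or without 19 °C ZT27 replicate 3, 4 °C ZT27 replicate 3 or 4 °C ZT45 replicate 1, so that 1 gene was higher in each case. BBX22 and BBX25 passed but were not called at −1.41 under quantile normalisation and −1.44 with a constant of 2.

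The 6 sigma factors, nuclear-encoded subunits that guide the plastid RNA polymerase to promoters, split by member. SIG5, which responds to light and stress, had 139, 136 and 149.8 at 4 °C and 46.2, 41.4 and 50.6 at 19 °C in the ZT45 set, and 96.6, 92.4 and 89.3 at 4 °C and 7.32, 9.97 and 10.1 at 19 °C in the ZT27 set. No groups overlapped, and chilling raised SIG5 in both sets, by 1.61 in the ZT45 set, against 3.29 in the ZT27 set. The time-set difference was −1.67 ± 0.26, adjusted p = 7e-05 (limma). SIG4 had 31.3, 29.8 and 30.4 at 4 °C and 30.8, 27.8 and 30.02 at 19 °C in the ZT45 set, and 15.7, 15.5 and 16.6 at 4 °C and 40.1, 37.2 and 37.1 at 19 °C in the ZT27 set, and a difference of 1.28 ± 0.09, adjusted p = 1.2e-10 (limma). Its chilled ZT27 libraries were low, whereas chilled and control libraries of the ZT45 set overlapped. SIG1 passed lower at −0.68 ± 0.14, SIG2 and SIG6 passed higher at 0.35 ± 0.08 and 0.23 ± 0.07, and SIG3 had −0.02 ± 0.07, which did not pass.

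Antenna proteins bind chlorophyll around the photosystems, and their genes had 16 of 21 lower and 1 higher with a median of −0.785. Chilling lowered 15 and raised 1 in the ZT45 set, and lowered 1 and raised 9 in the ZT27 set. LHCB2.2 had 342, 343 and 352 at 4 °C and 1079, 1027 and 1006 at 19 °C in the ZT45 set, and 1377, 1529 and 1347 at 4 °C and 997, 963 and 852 at 19 °C in the ZT27 set. Chilled libraries were the lowest in the ZT45 set and the highest in the ZT27 set, while the controls of the 2 sets lay near one another with no overlap. The difference was −2.18 ± 0.13, adjusted p = 6.8e-12 (limma). LHCB1.1, LHCB2.1, LHCB2.3 and LHCB3 were called lower as well, at −1.81 ± 0.14, −1.72 ± 0.15, −1.87 ± 0.16 and −1.56 ± 0.12. Under quantile normalisation LHCB1.1 and LHCB2.1 fell short of the call at −1.39 and −1.40, and without 19 °C ZT27 replicate 3 or 4 °C ZT27 replicate 2 LHCB3 did so, at −1.47 in the first case. The LHCB1 and LHCB2 genes are near-identical copies, and how reads were split among them is uncertain. LHCA6, a minor photosystem I antenna, was the member that passed higher, at 0.61 ± 0.12.

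Core photosystem, electron transport and Rubisco genes had a direction that depended on the scaling. As deposited, 10 of 35 passed lower, 1 higher and 0 were called, with a median of −0.20. After quantile normalisation 6 passed lower and 5 higher with a median of 0.0518. PSBS, needed for heat dissipation of excess light, had −0.64 ± 0.11, and Rubisco activase RCA had −0.66 ± 0.12, which became 0.000 under quantile normalisation. FNR2, a ferredoxin reductase, passed higher at 0.62 ± 0.11. PSAN and PSAD-2 had −0.39 ± 0.08 and −0.54 ± 0.12.

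Chlorophyll synthesis genes had 4 of 14 lower and 1 higher as deposited, and 4 and 5 after quantile normalisation, with medians of −0.122 and −0.021. Without the first chilled ZT27 replicate of sig5-3, or in the wild-type libraries alone, 2 passed higher. PORB, a light-dependent protochlorophyllide oxidoreductase, was called higher with 424 ± 39.05 at 4 °C and 270.4 ± 32.7 at 19 °C in the ZT45 set, and 505 ± 12.4 at 4 °C and 986 ± 130.4 at 19 °C in the ZT27 set (SD, n = 3 each) and a difference of 1.61 ± 0.15, adjusted p = 9.2e-09 (limma). HEMA1, GUN5, CRD1 and GUN4 passed lower at −1.10 ± 0.11, −0.89 ± 0.11, −0.72 ± 0.11 and −0.51 ± 0.12. HEMA1 encodes glutamyl-tRNA reductase, and GUN5 and GUN4 act in magnesium insertion.

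Starch breakdown genes had 7 of 20 higher and 1 lower, with a median of 0.18. The lower count was 2 in 5 of 21 alternative settings, among them without the first chilled ZT27 replicate of sig5-3 and without 19 °C ZT45 replicate 3 of the wild type. BAM3, the main chloroplast β-amylase and a cold-induced gene, was the one that passed lower and had 1955, 1984 and 1973 at 4 °C and 636, 667 and 613 at 19 °C in the ZT45 set, and 2742, 2784 and 2668 at 4 °C and 252, 224 and 199 at 19 °C in the ZT27 set. Groups did not overlap, and chilled libraries were high in both sets. The response was 1.63 in the ZT45 set, against 3.61 in the ZT27 set, a difference of −1.98 ± 0.12, adjusted p = 6.3e-12 (limma). DPE1, PHS1 and PWD passed higher at 1.45 ± 0.11, 0.95 ± 0.10 and 0.92 ± 0.12, as did BAM9 at 0.97 ± 0.17.

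PIF and growth genes had 4 of 11 lower and 1 higher, with a median of −0.214. The higher count was 2 without the first chilled ZT27 replicate of sig5-3 or in the wild-type libraries alone. PIF4, a bHLH factor of warm-temperature growth, had 0.464, 0.624 and 0.841 at 4 °C and 7.21, 5.32 and 6.16 at 19 °C in the ZT45 set, and 26.95, 26.6 and 26.5 at 4 °C and 50.1, 46.97 and 39.9 at 19 °C in the ZT27 set. The chilled libraries of the ZT45 set were the lowest and the ZT27 controls the highest. It fell by 2.56 on the log2 scale in the ZT45 set and by 0.76 in the ZT27 set, and its time-set difference of −1.80 ± 0.17 was −0.91 and not called with a constant of 2. PIF5 had a difference of −1.09 ± 0.11, and PIF1 passed higher at 1.06 ± 0.16. Among expansins, which loosen cell walls, 6 of 11 passed higher and 0 lower, with a median of 0.62. In 7 of 21 alternative settings 1 passed lower, among them without the first chilled ZT27 replicate of sig5-3, 19 °C ZT27 replicate 3 or 4 °C ZT45 replicate 3. EXPA8 was called, in 10 of 20 alternative settings only, with 2.34 ± 0.193 at 4 °C and 8.37 ± 1.01 at 19 °C in the ZT45 set, and 2.41 ± 0.398 at 4 °C and 25.03 ± 1.59 at 19 °C in the ZT27 set (SD, n = 3 each) and a difference of 1.50 ± 0.18, adjusted p = 6.1e-07 (limma), and EXPA1 and EXPA11 had 1.299 ± 0.10 and 1.28 ± 0.12. Type-A cytokinin response regulators had 2 of 8 lower and 1 higher with a median of −0.221, led by ARR7 at −1.06 ± 0.18, and ARR4 passed higher at 0.36 ± 0.10. Without 19 °C ZT45 replicate 2 these counts were 1 lower and 2 higher, without 4 °C ZT27 replicate 3 they were 1 and 1, and they were 3 and 2 without the first chilled ZT27 replicate of sig5-3. Among the 3 genes with a mean of at least 10 the median was 0.357.

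Fermentation genes were divided. ADH1, the sucrose synthase SUS1 (−2.81 ± 0.15) and the pyruvate decarboxylase PDC1 (−3.01 ± 0.30) were called lower, and the other 4 of 7 did not pass, with a median of −0.43. The median was −2.91 over the 4 genes with a mean of at least 10. PDC2 rose in both sets by 1.60 in the ZT45 set, against 1.37 in the ZT27 set, and its difference of 0.23 ± 0.10 passed in 3 of 21 alternative settings, among them without the first chilled ZT27 replicate of sig5-3 and without 19 °C ZT27 replicate 3. It was then the only fermentation gene that passed higher, and the low-oxygen gene LBD41 fell in both sets, with log2 responses of −1.84 in the ZT45 set, against −1.75 in the ZT27 set. In proline metabolism, P5CS2 of synthesis was called lower at −1.97 ± 0.08, adjusted p = 8.2e-15 (limma) and ERD5, the proline dehydrogenase of breakdown, was called higher at 1.74 ± 0.33, adjusted p = 0.00066 (limma). The other 3 genes of that list did not pass and its median was −0.116, which changed sign without 4 °C ZT27 replicate 1 (0.00276) or 19 °C ZT45 replicate 2 (0.0237).

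Membrane desaturase genes had 4 of 9 lower and 0 higher with a median of −0.216. ADS2 led at −1.12 ± 0.08, followed by ADS1 at −0.68 ± 0.18. FAD5 and FAD3 passed at −0.33 ± 0.11 and −0.26 ± 0.10, and lost this in 7 and 11 of 21 alternative settings, which left 2 of 9 when any 1 of 5 libraries was dropped. Touch, calcium and WRKY genes had 4 of 10 lower and 1 higher, with a median of −0.949. WRKY18 was called lower at −2.299 ± 0.24, and WRKY70 passed higher at 1.13 ± 0.30.

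Among 5 heat shock genes, HSP70 passed lower at −1.13 ± 0.24 (20%, against 12.6% of all genes) and the list median was −0.306. In the wild-type libraries alone 2 of the 5 passed lower. Jasmonate genes had 3 of 16 lower, led by JAZ9 at −1.27 ± 0.18, and 1 higher, which was MYC2. These shares of 18.8% and 6.25% lay near or under the 12.6% and 13.7% of all genes. The higher count was 0 in the 5 settings in which MYC2 was lost and 2 without 19 °C ZT27 replicate 3, and the median of 0.0696 turned to −0.146 and −0.0979 without 19 °C libraries ZT27 replicate 2 and ZT45 replicate 1. Chloroplast DnaJ genes had 1 of 4 lower, J11 at −0.95 ± 0.18, and 2 higher, AT5G23240 and J8 at 0.72 ± 0.23, with a median of 0.296. J8 no longer passed, leaving 1 higher, without any 1 of 7 wild-type libraries, namely 19 °C ZT27 replicates 2 and 3, 4 °C ZT27 replicates 2 and 3, 19 °C ZT45 replicates 1 and 2 and 4 °C ZT45 replicate 2. Its adjusted p then ran from 0.0513 to 0.0779 (limma). BTB and TAZ domain genes had BT1 lower at −1.35 ± 0.14 and BT2 higher at 1.41 ± 0.22, 1 and 2 of 5 in all, and a median of −0.0432 that changed sign in 5 of 21 alternative settings and is not read here. The lower count was 2 in 5 settings, among them without the first chilled ZT27 replicate of sig5-3 or 19 °C ZT27 replicate 3. Enzymes that detoxify reactive oxygen had 2 of 6 lower (33.3%, against 12.6% of all genes) and 1 higher (16.7%, against 13.7%) with a median of −0.11. FSD1, a superoxide dismutase, passed at −0.32 ± 0.11 and was lost in 10 of 21 alternative settings, which were quantile normalisation and the leaving out of any wild-type library other than 19 °C ZT27 replicate 3, 19 °C ZT45 replicate 3 and 4 °C ZT45 replicate 2, so that 1 of 6 was then lower. The catalases CAT2 and CAT1 had −1.18 ± 0.09 and 0.47 ± 0.13.

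**Figure D4:**
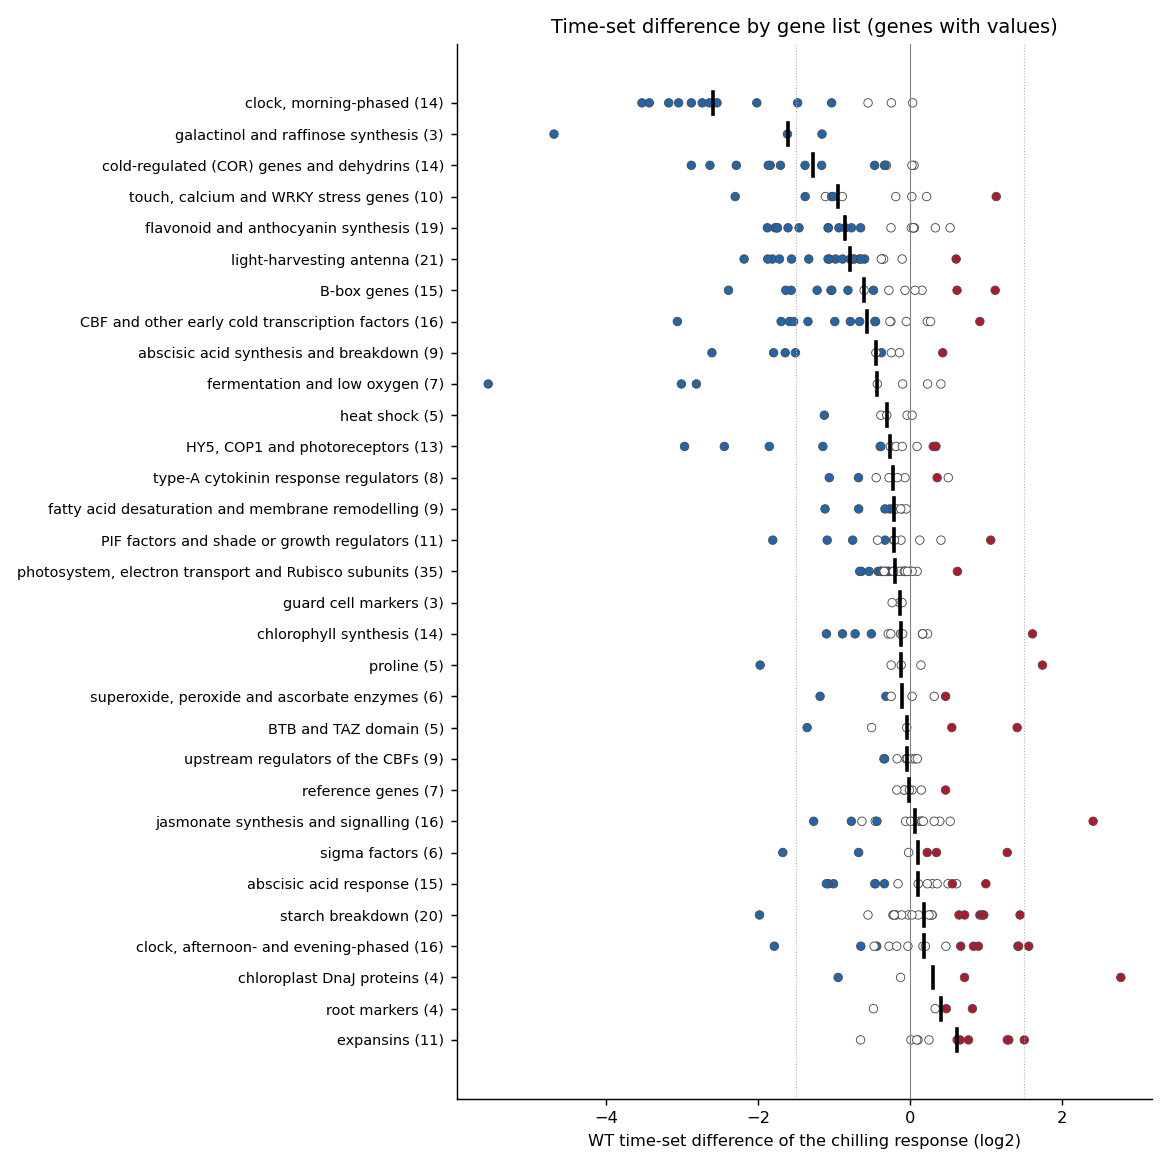
Time-set difference (log2) of each gene with a value, by list, with the number of genes in brackets; filled points passed (red higher, blue lower), open points did not, and bars are list medians. Among the lists as drawn, over all genes with values, morning clock genes have the lowest median at −2.59 and expansins the highest at 0.62; with a mean of at least 10, galactinol and raffinose genes (−3.15) and fermentation genes (−2.91) lie below the clock genes and root markers (0.649) above the expansins.

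Of 7 genes used as expression references, ACT2 passed at 0.47 ± 0.08, and the other 6 lay between −0.17 and 0.15, with a median of −0.00821 that changed sign in 3 of 21 alternative settings. Of 4 root markers with values, SCR and SHR passed higher at 0.82 ± 0.10 and 0.48 ± 0.12 and 0 passed lower, with a median of 0.404. Without 4 °C ZT45 replicate 3, 1 passed lower. None of 3 guard cell markers passed, and their median was −0.137.

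The sig5-3 libraries share no sample with the wild type and gave the same contrast again. In sig5-3, 89 genes (0.496%) were called higher and 273 (1.52%) lower. Of the wild-type calls, 49 of 49 higher and 234 of 236 lower had the same sign in sig5-3, and 36 and 198 were called there in the same direction. The 234 genes called in both made up 82.1% of the wild-type calls and 64.6% of the sig5-3 calls. Over all genes the 2 sets of differences correlated with r = 0.816 (n = 17952 genes, a description, since genes are not replicates).

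By the test of the genotype difference itself (limma), 0 genes passed, the smallest adjusted p was 0.289, and 1811 genes (10.1%) had an unadjusted p under 0.05. The median SE of that difference was 0.187 on the log2 scale. The errors of single genes can differ from this median. Estimates as large as −2.673 in AT3G02305 and −1.627 in J8 did not pass. Their unadjusted p were 9.92e-05 and 7.47e-05, and the adjusted p was 0.289 for both (limma). Large genotype differences could therefore go undetected. J8, a chloroplast DnaJ protein, had the smallest p, with time-set differences of 0.72 in wild type and 2.34 in sig5-3. Without the first chilled ZT27 replicate of sig5-3, whose root mean square deviation from its group was 0.263 against 0.0819 to 0.17 in the others, AT1G53233 was called at −2.62 ± 0.37 (adjusted p = 0.032). Without replicate 3 of the wild type at 19 °C in the ZT27 set, AT5G57760 was called at −1.72 ± 0.26 (adjusted p = 0.0247).

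Counts over lists are given side by side, and their difference between genotypes was not tested. Over all 17952 genes tested, 2255 passed lower in the wild type and 2785 in sig5-3. The sig5-3 list counts were not repeated under other scalings or without the first chilled ZT27 replicate of sig5-3. Of 35 photosystem genes, 10 passed lower in the wild type and 26 in sig5-3, with medians of −0.20 in the wild type and −0.551 in sig5-3. The wild-type median of this list turned to 0.0518 after quantile normalisation. Of 21 antenna genes, 16 passed lower in the wild type and 20 in sig5-3, with medians of −0.785 in the wild type and −1.24 in sig5-3. Of 19 flavonoid genes, 12 passed lower in the wild type and 16 in sig5-3, with medians of −0.852 in the wild type and −1.81 in sig5-3. Morning clock genes passed lower in 11 of 14 in both. Other lists had medians of opposite sign in wild type and sig5-3. These were touch, calcium and WRKY genes (−0.949 and 0.171), type-A cytokinin response regulators (−0.221 and 0.13) and evening clock genes (0.186 and −0.0325). They also included BTB and TAZ domain (−0.0432 and 0.784), abscisic acid response (0.108 and −0.0312), jasmonate (0.0696 and −0.047) and upstream CBF regulator genes (−0.0358 and 0.0737).

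**Figure D5:**
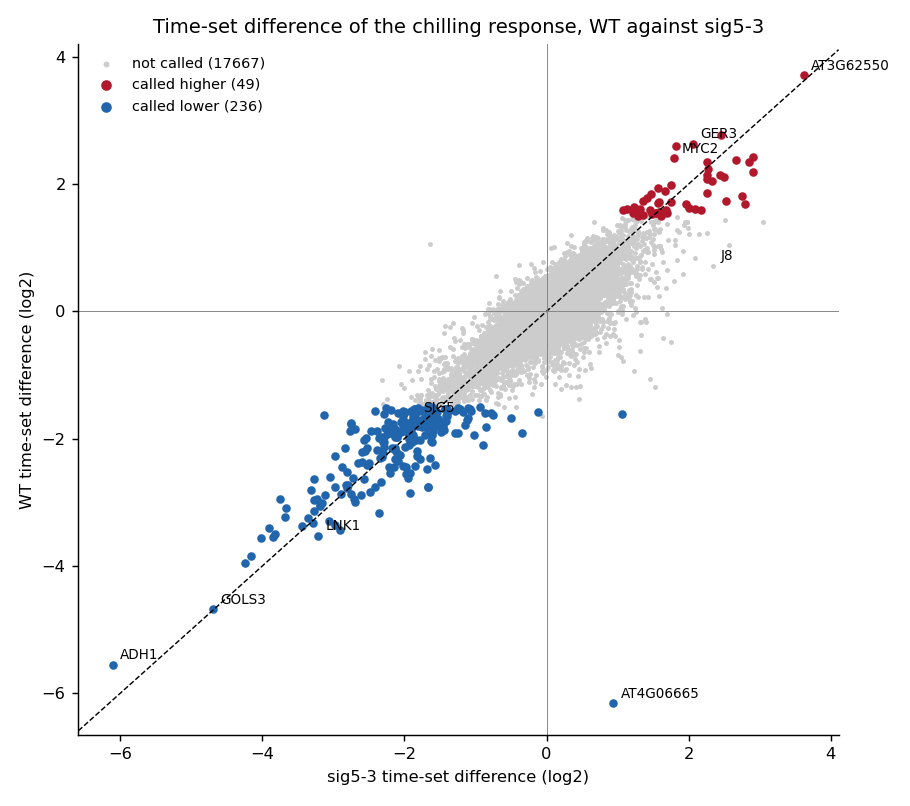
Each point is a gene, with the wild-type time-set difference on the vertical axis and the sig5-3 time-set difference on the horizontal axis (both log2), coloured by the wild-type call; the dashed line marks equal values. Of 285 called genes all but AT4G06665 and AT3G02305 have the same sign in both genotypes.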

How the data were processed

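Polyadenylated RNA of pooled seedlings was sequenced from a stranded kit, per the labels' protocols. STAR 2.4.1d and Partek 6.6 are named in the submitters' processing notes and the genome TAIR11 in the design text. How the authors assigned reads to genes and scaled them is not given in the sources here consulted. The values the authors deposited are a normalised signal per gene, not whole counts; among values under 30, 88.8% to 90.4% per wild-type library were whole multiples of a step (tolerance 0.05 steps), taken as the worth of 1 read, and whole reads were not rebuilt. That floor and depth cover counting error only. A further 19384 genes without numbers were left out.

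Values were transformed to log2(value + 0.5), which understates the change of genes at low values. A model of group means was fitted over the 24 libraries (limma 3.58.1, R 4.3.3; 16 residual degrees of freedom) with trended, robust empirical Bayes moderation and Benjamini-Hochberg adjustment over all 17952 genes. Genes passed at an adjusted p under 0.05 and were called beyond a log2 difference of 1.5. Errors of differences are standard errors of the fit. The labels call the 3 libraries of a group independent replicates. Named genes were the 15 largest called differences each way with a mean of at least 10 and a sign held by every choice of libraries, up to 5 of smallest adjusted p in each list, and members moving against their list; a few further list members were named after their values were seen. The genes, lists and rules were chosen with earlier results of these data known. Names and sequences are from RefSeq TAIR10.1, matched by gene identifier for all 17952 genes. Alternatives were other constants, a filter, other scalings, other sample sets, other moderation, a replicate block and leaving out each library.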

Additional observations from a re-analysis of the deposited data

Results flagged for a closer look

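The wild-type chilling response differed between the ZT45 and ZT27 sets, by the interaction test itself (limma, adjusted p under 0.05 and a log2 difference beyond 1.5), in 285 genes, 49 higher and 236 lower in the ZT45 set. Groups of 3 libraries are too small for a test of single outlying samples.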

How the results depend on the processing

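The called genes kept the sign of their difference in each of 21 alternative settings in which they were tested, which was all 285 except for 189 with a mean of at least 10, and counts of calls ran from 205 with a constant of 2 to 348 with a constant of 0.1, of which 201 and 285 were shared with the 285. With a constant of 0.1, 76 genes were called higher; among the 10810 genes with a mean of at least 10, 155 were called lower in the wild type, and 241 were called in sig5-3 in place of 362, since fewer genes were tested. Quantile normalisation gave 285 calls, median-of-ratios scaling 291, the 12 wild-type libraries alone 284, leaving out the first chilled ZT27 replicate of sig5-3 286, and a fit with no trend or robust settings 286. Leaving out each wild-type library in turn gave 273 to 303 calls, 45 to 52 higher and 224 to 258 lower. For the genotype difference, leaving out 1 library gave 0 to 1 calls, with 1 call without the first chilled ZT27 replicate of sig5-3 or without the third 19 °C ZT27 replicate of the wild type. The replicate numbers do not pair the samples: same-numbered libraries of different groups deviated together with correlations of −0.28 to 0.292 in 18 pairs, of which 4 exceeded 0.1, and 3 of 12 libraries correlated best with their own number. With the replicate block, 285 genes were called and 4584 passed, against 4716 without it. Of 203 named or listed genes that passed, 30 no longer passed under at least 1 setting, for reasons that were not tested. Among the 211 genes followed through the settings, a change of sign was seen in 7: RCA (0.000) under quantile normalisation, BBX31 (0.175) and COR15B (−0.368) with a constant of 2, NCED3 (0.006) and COR27 (0.311) with a constant of 0.1, COR27 (0.048) and TOC1 (0.048) under quantile normalisation, and, with 1 library left out, COR15B (−0.093 to 0.295, below 0 in 2 cases), TOC1 (−0.073 to 0.016, above 0 in 2 cases) and SIG3 (−0.042 to 0.016, above 0 in 1 case). Most listed genes that did not pass were not followed in this count. Changes of sign occurred there too, among them MYB11 (−0.92 with a constant of 0.1), BBX32 (0.52 with a constant of 2) and RBCS3B (0.61 under quantile normalisation). A mean of at least 10 leaves 9 of 16 early cold factors, with 5 lower, and 3 of 9 abscisic acid turnover genes, all 3 lower. Levels under the signal of 3 reads, as in AT4G06665 at 19 °C in the ZT27 set, are not measured at this depth.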
